A study of Mus musculus with 12 samples.

Results

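Genes of phenylalanine and tyrosine breakdown were followed through an RNA sequencing series of primary mouse hepatocytes, the metabolic cells that make up most of the liver. The 8 members, taken by symbol from a table of 55414 Ensembl genes, were Gch1, Pcbd1, Qdpr, Tat, Hpd, Hgd, Gstz1 and Fah, and each was found in 1 row of the table. Their Ensembl identifiers there were ENSMUSG00000037580 (Gch1), ENSMUSG00000020098 (Pcbd1), ENSMUSG00000015806 (Qdpr), ENSMUSG00000001670 (Tat), ENSMUSG00000029445 (Hpd), ENSMUSG00000022821 (Hgd), ENSMUSG00000021033 (Gstz1) and ENSMUSG00000030630 (Fah). All 8 passed the filter on low counts, which left 14919 genes for testing. The 4 groups were wild type (WT) cells with DMSO vehicle, WT cells with MJ041, cells labelled Hnf4a KO with DMSO vehicle, and Hnf4a KO cells with MJ041, with 3 libraries each. MJ041 is a candidate ligand compound according to the series title, which also names HNF4A dysfunction and sepsis. HNF4A is a nuclear receptor that maintains hepatocyte identity. The labels give no strain, age, dose, treatment time, deleted exon or Cre driver. They do not say whether replicates came from separate animals, so p-values measure only the spread between these libraries, which may be technical.

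Phenylalanine is broken down in the liver by hydroxylation to tyrosine, a step that consumes the cofactor tetrahydrobiopterin. Tyrosine then loses its amino group and is cut, through homogentisate and fumarylacetoacetate, into fumarate and acetoacetate, which feed energy metabolism and gluconeogenesis. Of the members, Gch1, Pcbd1 and Qdpr serve the cofactor, and Tat, Hpd, Hgd, Gstz1 and Fah are the successive enzymes of tyrosine breakdown. The hydroxylase of the first step is not analysed here. Loss of several of these enzymes underlies inherited disorders in people, such as tyrosinemia with Fah and alkaptonuria with Hgd.

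RefSeq gave a promoter for all 8 genes, 9 in total because Gstz1 has a pair of start sites, on build GRCm38.p6. The 250 bases before each start were searched on both strands for short motifs, with no overlap between matches to different motifs. Shown here are Tat (chr8:109990186-109990435, plus strand) and Hgd (chr16:37579903-37580152, plus strand), members that were lower in KO cells and held C/EBP matches. Each runs 5′ to 3′ and ends at the base before the start, and the capitals mark the motif matches.
Tat: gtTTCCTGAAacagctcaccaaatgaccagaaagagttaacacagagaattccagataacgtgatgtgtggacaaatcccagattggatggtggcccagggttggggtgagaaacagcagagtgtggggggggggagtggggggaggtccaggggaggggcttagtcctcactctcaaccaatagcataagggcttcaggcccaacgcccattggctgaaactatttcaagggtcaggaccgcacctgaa
Hgd: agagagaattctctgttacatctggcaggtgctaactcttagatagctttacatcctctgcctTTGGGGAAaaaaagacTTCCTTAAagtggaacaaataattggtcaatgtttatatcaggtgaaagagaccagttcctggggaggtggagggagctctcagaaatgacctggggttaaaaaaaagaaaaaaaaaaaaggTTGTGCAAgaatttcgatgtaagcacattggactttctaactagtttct
The HNF4 motif CAAAGTCCA was in none of the 9 and in 0.384% of the 32851 promoters in the table. Its looser form CAAAGNNCA was in none of the 9 and in 5.49% of all. The glucocorticoid receptor motif was in none of the 9 and in 0.387% of all. The C/EBP motif TTNCNNAA was in 4 of the 9 promoters (Gch1, Qdpr, Tat and Hgd), against 36.8% of all, with 3 matches in Hgd. Hpd, Gstz1 and Fah, also lower in KO cells, held no C/EBP match. A link between these matches and the genotype differences was not tested. A match of letters does not show a bound site, and a missing match says only that those letters are not in this window. In base composition the promoters ran from 38.8% G and C with 1 CpG (Hgd) to 64.4% with 16 CpG (Fah), and the median of all promoters was 52.4% with 6 CpG. The 3 cofactor genes had 17 (Gch1), 6 (Pcbd1) and 21 (Qdpr) CpG.

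The libraries held between 16740761 and 17902832 counts, and the members had from 139 counts (Hgd in a KO library) to 5267 counts (Hpd in a WT library). Levels are given as CPM, counts relative to library size and scaled by TMM, a method that corrects for library composition. The sums of cell type markers are the exception and are CPM without TMM scaling. The TMM factors ran from 0.938 (WT with MJ041, replicate 1) to 1.022 (KO with vehicle, replicate 3). Hnf4a itself had between 112 and 137 CPM in WT cells with vehicle and between 61.1 and 67.8 CPM in KO cells with vehicle, a log2 fold change of -0.92 ± 0.10 (SE, n = 3, edgeR adjusted p = 8.9e-06), and the labels do not say which part of the gene these counts should lack. The 7 hepatocyte markers summed to 49338 to 59543 CPM in WT and 23157 to 26322 CPM in KO libraries. Markers of other liver cells were detected in every library, with Lrat at 0 in 2 libraries and Clec4g and Cftr at 0 in 1 each. In WT with MJ041 the 8 Kupffer and macrophage markers summed to 170 to 323 CPM against 225 to 446 CPM with vehicle, and the 8 stellate markers to 59.0 to 102 CPM against 95.9 to 139 CPM. The 8 endothelial markers summed to 113 to 183 CPM against 156 to 229 CPM, and the 7 cholangiocyte markers to 122 to 269 CPM against 286 to 526 CPM. In KO cells the Kupffer sum was 431 to 471 CPM with vehicle and 442 to 458 CPM with MJ041.

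Compared per kilobase of exon, the members spanned a wide range in WT cells with vehicle. Hpd was the most abundant at 115 ± 19.3 CPM per kb (SD, n = 3), followed by Pcbd1 at 79.7 ± 6.34 and Qdpr at 30.2 ± 2.49. Fah (24.8 ± 2.37) and Gch1 (19.4 ± 1.67) came next. The libraries of these 5 genes did not overlap between neighbours in the order. Gch1, Gstz1 (16.9 ± 1.21) and Tat (14.6 ± 4.91) overlapped one another, and Tat overlapped Hgd, the least abundant at 8.52 ± 1.58 CPM per kb. In KO cells with vehicle Pcbd1 led at 109 ± 0.411 CPM per kb, and Qdpr (34.5 ± 1.41) overlapped Hpd (31.2 ± 2.21). Tat (4.43 ± 0.371) and Hgd (4.11 ± 0.505) overlapped at the bottom of the order. Lengths are the merged exons of another annotation release than the authors', from 817 bases (Pcbd1) to 6251 bases (Gch1), so the order is approximate.

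**Figure D1:**
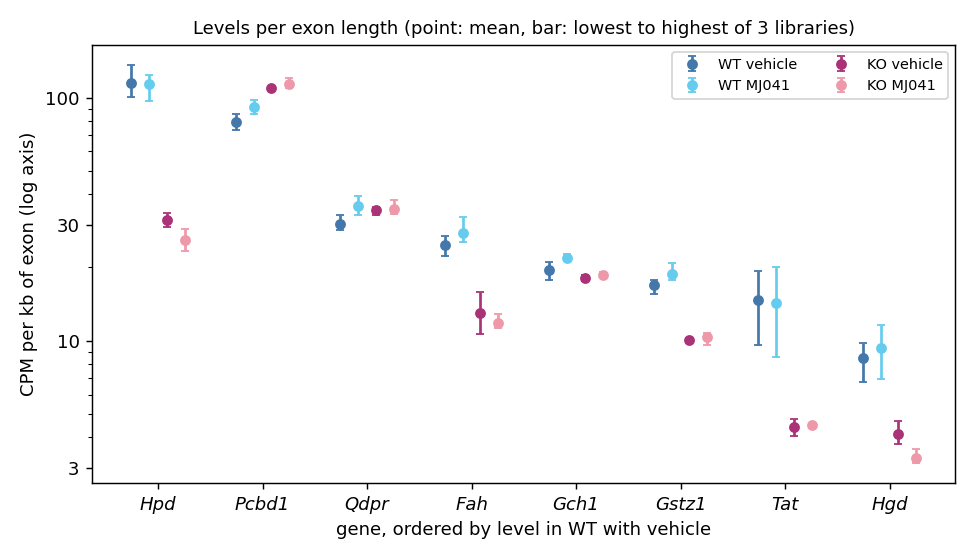
Levels of the 8 genes in CPM per kb of exon on a log axis, with genes ordered by their level in WT cells with vehicle; points are group means and bars run from the lowest to the highest of 3 libraries. Hpd heads the order in WT at 115 CPM per kb and falls to 31.2 in KO, while Pcbd1 heads the order in KO at 109.

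Genotypes were compared under vehicle first, to see which members differ when the Hnf4a gene is labelled as knocked out. The 5 enzymes of tyrosine breakdown all fell in KO cells, and of the 3 cofactor genes Pcbd1 rose while Qdpr and Gch1 did not pass the test. Of the 8 members, 6 passed (1 higher, 5 lower), where 54.5% of all tested genes passed in this comparison, 27.5% as higher and 26.9% as lower. The members' median log2 fold change was -0.84, against -0.0020 over all tested genes. The KO and WT libraries did not overlap for the same 6 members, where this held for 63.1% of all tested genes (31.6% higher, 31.5% lower). With so large a background, a count of 6 called members is not a result by itself, and the sizes are given gene by gene.

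Tat, the tyrosine aminotransferase that opens tyrosine breakdown and a classic glucocorticoid-induced liver gene, varied most among WT libraries. It stood at 23.0, 36.1 and 46.5 CPM in WT cells with vehicle (replicates 1, 2 and 3) and at 9.71, 10.8 and 11.5 CPM in KO cells with vehicle. Every KO library was below every WT library, and the WT spread (SD 11.8 CPM, n = 3) was far wider than the KO spread (SD 0.893 CPM). Its log2 fold change was -1.72 ± 0.28 (SE, n = 3, edgeR adjusted p = 0.00021), and the KO mean was 30.3% of the WT mean. In these bulk libraries, fewer cells that make a transcript and less of it per cell cannot be told apart.

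Hpd, the 4-hydroxyphenylpyruvate dioxygenase that makes homogentisate, had the largest fold change of the 8. Its WT libraries with vehicle held 213, 228 and 291 CPM and its KO libraries 62.2, 65.6 and 71.5 CPM. The groups were far apart relative to their spread, with a KO mean at 27.2% of WT and a log2 fold change of -1.88 ± 0.13 (edgeR adjusted p = 1.3e-07). Of all tested genes, 2.66% had a log2 fold change as low or lower.

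Hgd, the homogentisate dioxygenase that opens the aromatic ring, stood at 17.6, 23.6 and 25.6 CPM in WT and at 9.83, 10.2 and 12.3 CPM in KO. The groups did not overlap, and the log2 fold change was -1.05 ± 0.18 (edgeR adjusted p = 0.00031). Gstz1, the maleylacetoacetate isomerase of the next step, had 79.1, 88.7 and 90.7 CPM in WT and 50.1, 51.7 and 52.0 CPM in KO. It showed the smallest fall of the 5 enzymes, a log2 fold change of -0.75 ± 0.08 (edgeR adjusted p = 4.2e-06), with a KO spread of 1.04 CPM (SD, n = 3). Fah, the fumarylacetoacetase that completes the pathway, had 49.5, 55.3 and 60.0 CPM in WT and 23.5, 35.1 and 28.0 CPM in KO. Its KO libraries were more spread (SD 5.80 CPM) but stayed below the WT libraries, at a log2 fold change of -0.93 ± 0.14 (edgeR adjusted p = 8.0e-05).

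Summed over these 5 enzymes, the libraries held 383 to 514 CPM in WT and 155 to 175 CPM in KO with vehicle. The 3 cofactor genes summed to 227 to 261 CPM in WT and 262 to 268 CPM in KO. The enzyme sum was lower in every KO library than in any WT library, and the cofactor sum was not lower in any. The summed hepatocyte markers were also lower in KO with vehicle (23157 to 26322 CPM, against 49338 to 52689 CPM in WT), but of the 7 markers 3 passed as lower and 1 as higher, and their median log2 fold change was -0.053. The Kupffer sums of KO (431 to 471 CPM) and WT (225 to 446 CPM) overlapped, with 2 of 8 markers passing as higher and 1 as lower. The part of either marker list in the members' changes was not tested.

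Pcbd1 encodes pterin-4a-carbinolamine dehydratase, which recycles the cofactor. It was at 65.4, 70.1 and 59.8 CPM in WT and at 89.1, 89.7 and 89.1 CPM in KO with vehicle. The KO libraries lay above every WT library, and the log2 fold change was 0.46 ± 0.07 (edgeR adjusted p = 8.9e-05). These KO libraries differed by less than counting error alone would give, so their closeness is not read as a trait.

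Qdpr, the quinoid dihydropteridine reductase that completes cofactor recycling, had 50.9, 59.0 and 51.8 CPM in WT and 62.6, 58.8 and 63.5 CPM in KO with vehicle. One KO library lay within the WT range, and the log2 fold change of 0.19 (95% interval 0.018 to 0.37) did not pass over all genes (edgeR adjusted p = 0.059). It passed in 6 of the 19 alternative fits, with an adjusted p of 0.041 when only the groups compared were fitted. Gch1, the GTP cyclohydrolase that starts cofactor synthesis, had 111, 132 and 122 CPM in WT and 116, 115 and 109.8 CPM in KO. Its groups overlapped, and the log2 fold change was -0.10 (95% interval -0.23 to 0.035, edgeR adjusted p = 0.20). Without vehicle-treated WT replicate 1, the lowest WT library for Gch1, it was -0.16 and passed (adjusted p = 0.034).

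**Figure D2:**
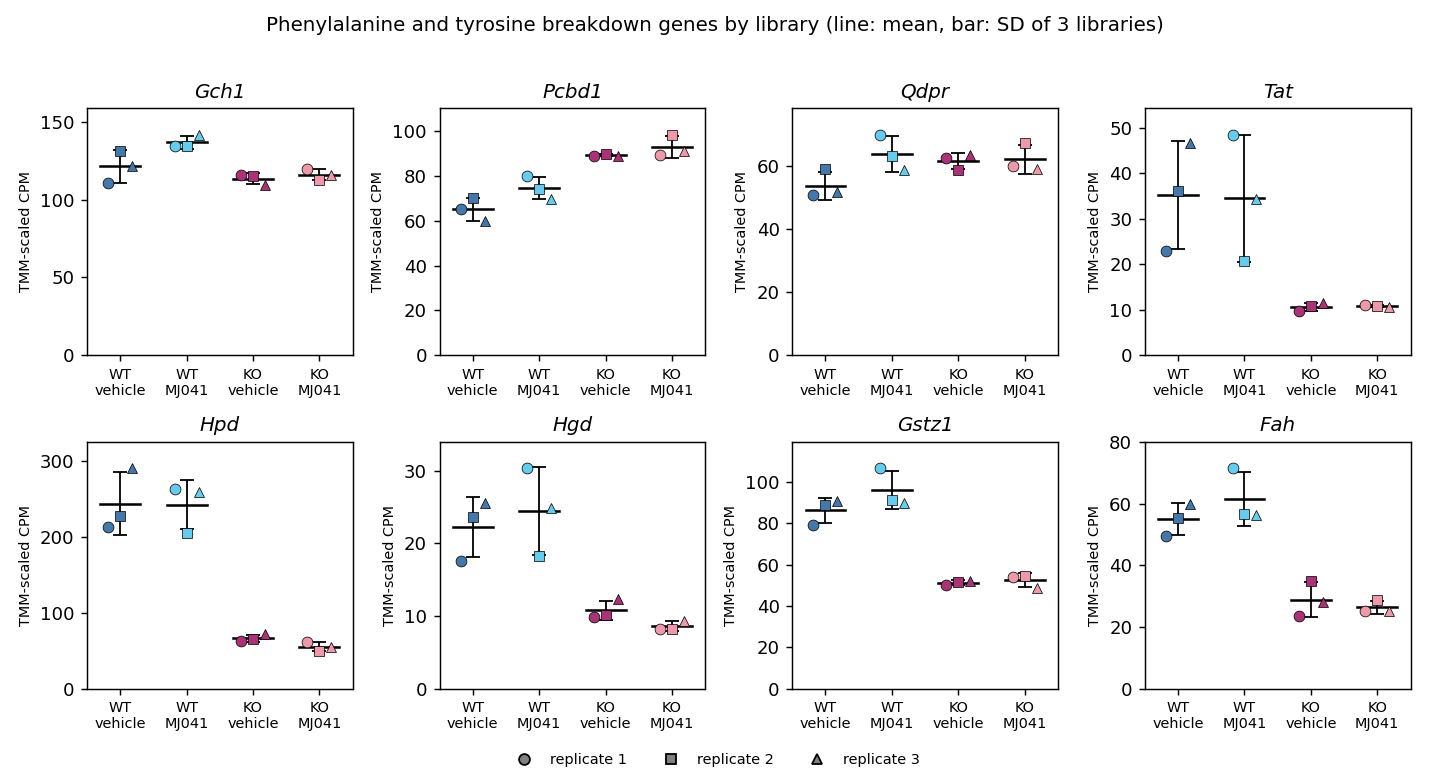
TMM-scaled CPM of each gene in each of the 12 libraries, by group on the horizontal axis, with points for libraries (shape marks the replicate number), a line for the mean and a bar for the SD of 3 libraries. The 5 tyrosine enzymes (Tat, Hpd, Hgd, Gstz1, Fah) sit lower in all KO libraries than in any WT library, Pcbd1 sits higher in KO, and Tat spreads from 20.6 to 48.5 CPM in WT with MJ041.

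The same genotype comparison among MJ041-treated libraries showed which differences recurred in other libraries. Of the 8 members 7 passed, 1 higher and 6 lower, with 54.4% of all tested genes passing (26.8% higher, 27.6% lower). The members' median log2 fold change was -1.05, against 0.022 over all genes. The same 7 had no overlap between genotypes, as had 59.2% of all tested genes (29.4% higher, 29.8% lower). The tyrosine enzymes fell again. Hpd was at 263, 205 and 259 CPM in WT with MJ041 and at 61.5, 49.95 and 54.6 CPM in KO with MJ041, a log2 fold change of -2.13 ± 0.13 (edgeR adjusted p = 4.5e-08). Its KO mean was 22.8% of the WT mean.

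Tat was at 48.5, 20.6 and 34.3 CPM in WT with MJ041 and at 11.01, 10.9 and 10.6 CPM in KO, with a log2 fold change of -1.67 ± 0.29 (edgeR adjusted p = 0.00028). Even the low WT library, replicate 2, was above the 3 KO libraries. Hgd had 30.3, 18.2 and 24.8 CPM in WT and 8.19, 8.18 and 9.35 CPM in KO, a log2 fold change of -1.51 ± 0.19 (edgeR adjusted p = 1.8e-05). Gstz1 had 107, 91.2 and 90.0 CPM in WT and 54.1, 54.5 and 48.6 CPM in KO (-0.87 ± 0.08, edgeR adjusted p = 1.1e-06). For both genes the WT and KO libraries were clearly apart. Fah had 71.5, 56.6 and 56.2 CPM in WT and 25.3, 28.7 and 25.1 CPM in KO (-1.22 ± 0.14, edgeR adjusted p = 8.2e-06).

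Among the cofactor genes Pcbd1 was again higher in KO, with 89.2, 98.4 and 91.0 CPM against 79.8, 74.0 and 69.9 CPM in WT, a log2 fold change of 0.32 ± 0.07 (edgeR adjusted p = 0.0014). Gch1 passed as lower here, with 119.6, 113 and 116 CPM in KO against 134, 134 and 142 CPM in WT, a log2 fold change of -0.24 ± 0.06 (edgeR adjusted p = 0.0049). That Gch1 passed with MJ041 and not with vehicle does not show that the genotype effect differed, since the interaction test gave -0.14 ± 0.09 (edgeR adjusted p = 0.51). Qdpr overlapped between genotypes, with 60.0, 67.5 and 59.1 CPM in KO and 70.1, 63.2 and 58.7 CPM in WT, and its log2 fold change was -0.04 (95% interval -0.21 to 0.13, edgeR adjusted p = 0.70).

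The response to MJ041 was read in WT cells next. None of the 8 members passed over all genes in edgeR, where 2.21% of tested genes passed (1.19% higher, 1.02% lower), and none passed in DESeq2. At an unadjusted p below 0.05 there were 3 members, the 3 cofactor genes. Their log2 fold changes were 0.17 (95% interval 0.041 to 0.30, edgeR adjusted p = 0.13) for Gch1, 0.20 (0.049 to 0.34, adjusted p = 0.12) for Pcbd1 and 0.25 (0.072 to 0.42, adjusted p = 0.11) for Qdpr. The lowest Gch1 library with MJ041 (134 CPM) was above the highest with vehicle (132 CPM). Gch1 was the only member of the 8 whose groups did not overlap, in a comparison where 22.3% of all tested genes did not (13.1% higher, 9.22% lower).

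The cofactor sum was 270 to 284 CPM with MJ041 against 227 to 261 CPM with vehicle in WT. Without MJ041-treated WT replicate 3, Qdpr (0.30, adjusted p = 0.033) and Pcbd1 (0.24, adjusted p = 0.047) passed. Qdpr also passed with no low-count filter (0.26, adjusted p = 0.036). Over all genes, 2059 of 15201 passed without that replicate and 1667 of 30185 with no filter, against 329 of 14919 in the main fit. These calls came with more calls over all genes, so they are not results about the members by themselves. The sums of cholangiocyte markers in WT were lower with MJ041 than with vehicle without overlap, but their mean log2 CPM overlapped. Those of Kupffer, stellate and endothelial markers overlapped in sum, and no marker of these 4 lists passed. The median log2 fold change was -0.076 for cholangiocyte, -0.59 for Kupffer, -0.55 for stellate and -0.65 for endothelial markers. A further fit took the non-hepatocyte marker level as a covariate, from the Kupffer, stellate and endothelial lists without the cholangiocyte list. No member passed in it, as 0 of 14919 tested genes did.

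The tyrosine enzymes showed no shift beyond the spread of the WT libraries. The log2 fold change was -0.03 (95% interval -0.60 to 0.54) for Tat and -0.0092 (-0.27 to 0.25) for Hpd. It was 0.14 (-0.24 to 0.51) for Hgd, 0.15 (-0.0087 to 0.32) for Gstz1 and 0.16 (-0.12 to 0.44) for Fah. The edgeR adjusted p of these 5 lay between 0.26 and 0.98. The WT libraries of Tat ranged from 20.6 to 48.5 CPM over both treatments, and a change within its wide interval was not detectable here. In WT cells with vehicle, replicate 1 was the lowest and replicate 3 the highest library for each of the 5 enzymes. In WT with MJ041, replicate 1 was the highest for each of them.

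**Figure D3:**
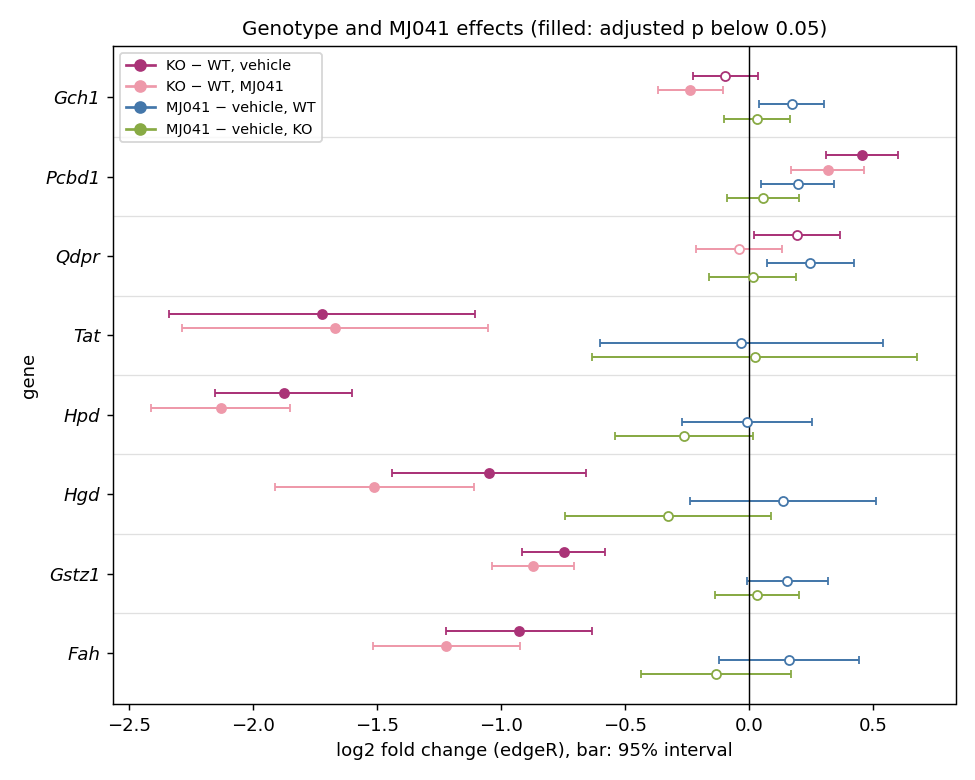
Log2 fold changes of the 8 genes in 4 comparisons, with 95% intervals from the edgeR fit; filled points passed at an adjusted p below 0.05 over all tested genes. The genotype differences of Tat, Hpd, Hgd, Gstz1 and Fah lie between -0.75 and -2.13, and all MJ041 effects are open points, between -0.33 and 0.25.

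The same treatment was then read in cells labelled KO. None of the 8 passed in edgeR, and 0% of tested genes passed. No member reached an unadjusted p below 0.05, and DESeq2 called 0 genes in all. Hpd was lower in all 3 libraries with MJ041 (61.5, 49.95 and 54.6 CPM) than with vehicle (62.2, 65.6 and 71.5 CPM), a log2 fold change of -0.26 (95% interval -0.54 to 0.015, edgeR adjusted p = 1). Hgd did the same, with 8.19, 8.18 and 9.35 CPM against 9.83, 10.2 and 12.3 CPM, a log2 fold change of -0.33 (-0.74 to 0.088, edgeR adjusted p = 1). Groups without overlap made up 9.51% of all tested genes in this comparison (5.13% higher, 4.38% lower). The other 6 members overlapped, with log2 fold changes from -0.13 (Fah) to 0.056 (Pcbd1).

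Whether the MJ041 response differed by genotype was tested directly as an interaction, the response in KO minus that in WT. None of the 8 members passed in edgeR, as 0% of tested genes did, and none had an unadjusted p below 0.05. DESeq2 called none of the members. The members' values ran from -0.46 ± 0.26 for Hgd (edgeR adjusted p = 0.46) to 0.054 ± 0.40 for Tat (adjusted p = 0.97). Qdpr had -0.23 ± 0.11 (adjusted p = 0.40), Fah -0.29 ± 0.19 (adjusted p = 0.54) and Hpd -0.25 ± 0.18 (adjusted p = 0.57). The median of the 8 was -0.19, against -0.015 over all genes.

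The members were also set beside other genes of the pathway. Of all tested genes, 54.5% passed in KO against WT with vehicle (27.5% higher, 26.9% lower). The counts of this comparison for each list below are therefore not results by themselves. With MJ041, 2.21% of all tested genes passed in WT and 0% in KO, so a list without a call there is not a result either. Of 8 other genes of tetrahydrobiopterin and its hydroxylases, 4 rose and 2 fell in KO cells with vehicle, with a median log2 fold change of 0.37. Gchfr, which encodes the feedback regulator of the Gch1 enzyme, had a mean of 13.9 ± 0.889 CPM in WT and 0.951 ± 0.317 CPM in KO (SD, n = 3). Its log2 fold change was -3.86 ± 0.20 (edgeR adjusted p = 1.0e-08), while Gch1 itself changed by -0.10 and did not pass. Pts, which encodes the second enzyme of cofactor synthesis, rose by 0.60 on the log2 scale (adjusted p = 0.00013). Cbr1 and Akr1b3, reductases that can reduce cofactor precursors, rose by 1.09 (adjusted p = 2.3e-07) and 0.53 (adjusted p = 0.00095). Of these 8 genes none passed with MJ041 in WT or in KO cells.

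Among 14 other genes around tyrosine and its end products, 5 rose and 3 fell in KO with vehicle, with a median of 0.22. Bdh1, which converts acetoacetate to 3-hydroxybutyrate and so handles an end product of Fah, fell by 3.37 on the log2 scale (adjusted p = 2.2e-06). Hpdl, a relative of Hpd, fell by 1.29 (adjusted p = 6.2e-05), and Acat1, the acetoacetyl-CoA thiolase, rose by 0.92 (adjusted p = 5.1e-05).

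Of 6 transporters that carry aromatic amino acids, 1 rose and 2 fell in KO with vehicle. Slc16a10, a facilitated carrier of phenylalanine and tyrosine, rose by 1.09 on the log2 scale (edgeR adjusted p = 2.9e-06). Slc3a2 and Slc7a5, the chains of the LAT1 exchanger, changed by -0.88 (adjusted p = 9.5e-08) and -0.49 (adjusted p = 0.0015).

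Of 11 regulators chosen for known roles at these genes, 4 rose and 5 fell in KO with vehicle. Cebpa changed by -0.86 (edgeR adjusted p = 6.5e-06) and Crtc2, a CREB coactivator, by -0.43 (adjusted p = 4.6e-06). Nr3c1, the glucocorticoid receptor gene that governs Tat, fell by 0.35 (adjusted p = 0.00033). None of the 11 passed with MJ041 in either genotype, where 2.21% of all tested genes passed in WT and 0% in KO. Among 10 other glucocorticoid-induced genes 3 rose and 4 fell in KO, with a median of 0.022 beside the -1.72 of Tat. Klf9 (-0.94, adjusted p = 2.1e-06) and Per1 (-0.72, adjusted p = 0.0011) fell, and Zbtb16 (1.19, adjusted p = 3.8e-06) and Dusp1 (0.49, adjusted p = 0.00012) rose. With MJ041 in WT, 1 of the 10 passed, Zbtb16 (0.53, adjusted p = 0.048), a call lost in 15 of 19 alternative fits.

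**Figure D4:**
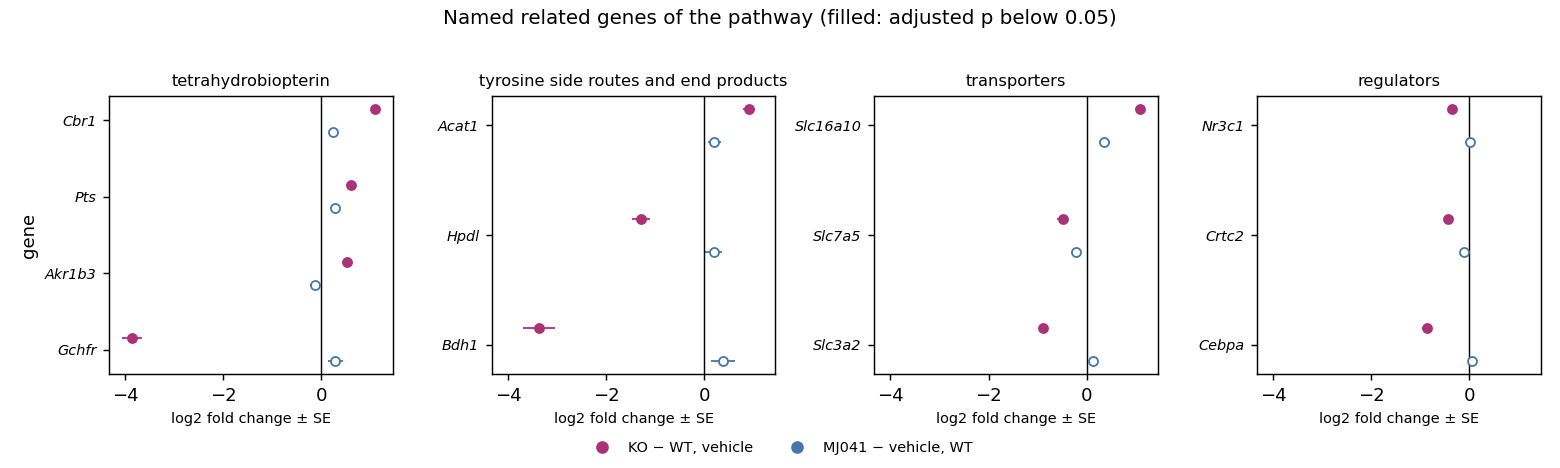
Log2 fold changes with their SE for the genes of 4 pathway lists that the text names, for KO against WT with vehicle and for MJ041 against vehicle in WT; filled points passed at an adjusted p below 0.05. Gchfr at -3.86 and Bdh1 at -3.37 lie farthest from 0, and none of the genes shown passed with MJ041 in WT.

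Gch1 is induced by inflammatory cytokines in many cells, and 10 genes induced by the same signals were read beside it. With MJ041 in WT cells their median log2 fold change was -0.53, and 2 passed as lower, among them the arginine transporter Slc7a2 (-1.13, edgeR adjusted p = 0.036), while Gch1 stood at 0.17 and did not pass. The call on Slc7a2 was lost in 9 of 19 alternative fits, the fit with the non-hepatocyte marker covariate included. In KO with vehicle 6 of the 10 fell and 2 rose, among them Slc7a2 (-1.55, adjusted p = 9.5e-05), Icam1 (-0.76, adjusted p = 0.00071), Ass1 (-0.45, adjusted p = 0.0011) and Vcam1 (1.49, adjusted p = 2.1e-05).

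For scale, 2 other routes of amino acid disposal were counted in KO with vehicle. The urea cycle list held 7 genes, of which 5 were lower and 0 higher (median -0.42). The tryptophan breakdown list also held 7, with 2 lower and 4 higher (median 0.41). For the 5 tyrosine enzymes, all of which fell, the log2 fold changes ran from -1.88 to -0.75. Otc of the urea cycle (-5.76) and Haao of tryptophan breakdown (-6.54) changed by more than any member did.

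The genes with the profile most like each member were sought among 10226 genes, by the root mean square difference of log2 CPM profiles centred on their own mean over the 12 libraries. For Hpd these were Cish (0.12) and Csad (0.15), against a median of 1.01 over all candidates. For Fah they were Uroc1 (0.092), the urocanase of histidine breakdown, and Aldh1l1 (0.093), a folate enzyme, with a median of 0.57. Dpys, a pyrimidine-breakdown enzyme, was nearest to Hgd (0.14) and second to Tat (0.23), for which Sdr42e1 (0.22) came first. Gcdh of lysine and tryptophan breakdown (0.072) and Nedd1 (0.072) were nearest to Gstz1. Of the cofactor genes, Pcbd1 was nearest to Agpat3 (0.045) and Ndufa5 (0.046), Qdpr to Gpx1 (0.058) and Fbxl6 (0.061), and Gch1 to Ube2a (0.062) and Scyl3 (0.064). Between members, the closest pair of tyrosine enzymes was Gstz1 and Fah (0.19), and the most distant pair of all 8 was Pcbd1 and Hpd (1.21).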

How the data were processed

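The authors deposited 1 table of whole-number read counts for each Ensembl gene and library, not normalized. Per the labels' protocols, RNA from 12 libraries was column-purified, made into stranded libraries and read on an Element AVITI instrument. Per the submitters' processing notes the tools were FastQC, Trimmomatic 0.34, STAR 2.7.10b, featureCounts and DESeq2 on mm39. Strand and multimapping settings are not given in the sources used here. Symbols came from an annotation of another build, and 52081 of 55414 identifiers matched (14885 of 14919 tested).

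Analyses used R 4.3.3 and edgeR 4.0.16, with DESeq2 1.42.0 as an alternative. Genes were kept by filterByExpr (minimum count 10), scaled by TMM and fitted with edgeR's quasi-likelihood test, all 12 libraries in 4 groups. The p-values were adjusted by the Benjamini-Hochberg method across the 14919 genes, and 0.05 was the threshold. The SE was derived from the F statistic, and 95% intervals from the SE. Log2 CPM used a prior count of 2. The fit was checked on simulated data in which most genes were unchanged. Of simulated 1.25-fold changes it recovered 26% for MJ041 in WT and 24% for KO against WT with vehicle. Of 2-fold changes it recovered 90% and 98%. Small changes could therefore be missed. Libraries of a group differed by more than counting noise (chi-square over degrees of freedom 4.62 to 15.5), so each was 1 sample. Library depth was close to even. In some groups the libraries of a member lay closer together than counting error alone would give. An example was Pcbd1 in KO with vehicle (mean 89.3 CPM, SD 0.336 CPM).

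The members and lists were chosen with earlier results of these data known. The text names the 8 members and Hnf4a. From each list it names up to 4 genes with the smallest adjusted p in KO against WT with vehicle, with Nr3c1. Some genes and a motif that the rule or the search covers are not reported here, though the list counts include those genes. It also names the 2 genes most like each member, among those with a mean of at least 5 CPM. Slc7a2, Zbtb16, Otc and Haao fall within the rule for lists, and the MJ041 results of Slc7a2 and Zbtb16 were given because they passed. Alternatives were DESeq2, another scaling, no filter, fewer groups, a replicate block, a marker covariate and leaving out libraries.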

Additional observations from a re-analysis of the deposited data

How the results depend on the processing

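The 6 members called in both genotype comparisons kept their direction and passed in all 228 refits, and called members numbered 6 to 7 with vehicle and 7 to 7 with MJ041 when 1 library was left out. With MJ041 in WT, the count of called members was 0 and became 1 with no low-count filter, and 0 to 2 without 1 library. Called genes overall in that comparison were less stable, 329 against 906 by DESeq2, 1667 with no filter, 649 with the replicate block, 0 with only the groups compared, with the marker covariate or without MJ041-treated WT replicates of low stellate marker level, and 0 to 2059 without 1 library (2059 without MJ041-treated WT replicate 3). The interaction called 0 genes in edgeR, 227 by DESeq2, 886 with no filter and up to 852 without that replicate, and MJ041 in KO called 15 with no filter. Some values near 0 changed sign. For Qdpr, KO against WT with MJ041 gave 0.074 with the marker covariate, 0.077 without the low-stellate pair (the lone treated WT library left is assumed to vary as other groups do), and -0.12 to 0.024 without 1 library. For Hpd, MJ041 in WT gave 0.0029 with no filter, 0.069 with the covariate, 0.089 without that pair and -0.10 to 0.12 without 1. Without 1 library, MJ041 in WT ran from -0.049 to 0.29 for Hgd and from -0.36 to 0.21 for Tat, and the Tat interaction from -0.19 to 0.38. MJ041 in KO ran from -0.057 to 0.044 for Qdpr, -0.0062 to 0.077 for Gstz1, -0.046 to 0.072 for Tat, -0.27 to 0.030 for Fah and -0.0011 to 0.043 for Gch1. The cause was not tested.

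Same-numbered libraries correlated above 0.1 in 7 of 18 pairs (-0.10 to 0.50), so the numbers were not taken to pair the libraries, although 9 of 12 libraries correlated best with one of their own number. Within a genotype, the same-numbered vehicle and MJ041 libraries 1, 2 and 3 correlated at 0.35, 0.46 and 0.039 in KO. In WT these values were -0.010, 0.20 and 0.50. With the replicate block, 6, 7, 0, 0 and 0 members were called in the 5 comparisons, as without it. That block was shared by both genotypes, and a pairing within each genotype was not tested.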
